A study of Rattus norvegicus with 44 samples.

Results

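The genes described here are 5 transcripts of the red cell lineage: Alas2, Ahsp, Slc4a1, Epb42 and Hemgn. They were found by the gene symbol of their probes, Epb42 also under Epb4.2 and Ahsp under Eraf, which gave 5 genes with 6 probes among 10412 genes and 14055 probes on the array. Slc4a1 had 2 probes and the others had 1 each. All 5 members had a value on every array.

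The arrays are 44 single-colour Agilent arrays of male Sprague-Dawley rats (NCTR strain, 3 months old) in 11 groups of 4. The rats were given neurotoxic doses of amphetamine (AMPH), were exposed to a hot environment until pronounced hyperthermia (environmentally induced hyperthermia, EIH), or received saline, and were killed 1 day or 3 h later. Choroid plexus, the epithelial tissue in the brain ventricles that makes cerebrospinal fluid, was hybridised as pools of 3 rats: AMPH and EIH at 1 day, and AMPH, EIH and saline at 3 h. Trunk blood was hybridised from 1 rat per array: AMPH, EIH and saline at both times. No choroid plexus saline pool of 1 day was analysed here, and the choroid plexus EIH pools of 1 day carry the word control in their titles, although source and treatment labels give EIH. By the rat numbers in the labels, 17 blood rats also gave tissue to a pool, and 5 numbers recur over 7 pools, so not all arrays are independent. Some of these numbers recur across treatments or times, and 2 blood rats have their number in a pool of another treatment or time. A rat killed once cannot belong to both, so some numbers or labels may be wrong.

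A red cell is made in the bone marrow, loses its nucleus and enters the blood as a reticulocyte, a young red cell that still holds RNA. It translates that RNA for a short while and then degrades it, so erythroid transcripts in blood come mainly from reticulocytes. Alas2 is the rate-limiting enzyme of heme synthesis in erythroid cells, and Ahsp is a chaperone that binds free alpha globin. Slc4a1 (band 3) is the anion exchanger that anchors the membrane skeleton, and Epb42 (protein 4.2) binds band 3 to that skeleton. Hemgn (hemogen) is a nuclear protein of blood-forming cells that acts in erythroid differentiation. Several of these genes are known targets of Gata1, the zinc finger factor of erythroid cells.

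The genes lie on separate chromosomes of the rat assembly GRCr8: Alas2 on X (22890650 to 22914046), Ahsp on 1 (192310306 to 192315943), Slc4a1 on 10 (87807010 to 87823274), Epb42 on 3 (128433460 to 128451683) and Hemgn on 5 (65475228 to 65495384). RefSeq promoter windows for GRCr8 were held for 3 of the 5 members. The 250 bases before each annotated start are shown because these genes, on different chromosomes, share a red cell programme. Capitals mark matches to the Gata motif, which is GATA with A or T before it and A or G after it, searched on both strands.
Epb42, chr3:128451684-128451933, minus strand: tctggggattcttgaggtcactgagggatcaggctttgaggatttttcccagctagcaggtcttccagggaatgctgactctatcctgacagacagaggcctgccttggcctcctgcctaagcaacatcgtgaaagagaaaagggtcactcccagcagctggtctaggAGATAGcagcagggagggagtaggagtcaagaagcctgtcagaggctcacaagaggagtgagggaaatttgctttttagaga
Hemgn, outer start, chr5:65494190-65494439, minus strand: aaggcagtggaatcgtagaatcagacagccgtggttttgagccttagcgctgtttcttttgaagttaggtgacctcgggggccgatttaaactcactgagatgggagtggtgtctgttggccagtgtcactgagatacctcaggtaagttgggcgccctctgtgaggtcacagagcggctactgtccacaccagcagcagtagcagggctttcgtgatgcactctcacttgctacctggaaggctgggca
Hemgn, inner start, chr5:65485822-65486071, minus strand: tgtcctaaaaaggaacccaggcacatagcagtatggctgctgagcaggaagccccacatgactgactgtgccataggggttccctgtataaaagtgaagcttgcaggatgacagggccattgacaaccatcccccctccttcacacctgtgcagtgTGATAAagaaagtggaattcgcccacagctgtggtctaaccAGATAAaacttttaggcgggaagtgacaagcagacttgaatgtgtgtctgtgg
Alas2, chrX:22895200-22895449, plus strand: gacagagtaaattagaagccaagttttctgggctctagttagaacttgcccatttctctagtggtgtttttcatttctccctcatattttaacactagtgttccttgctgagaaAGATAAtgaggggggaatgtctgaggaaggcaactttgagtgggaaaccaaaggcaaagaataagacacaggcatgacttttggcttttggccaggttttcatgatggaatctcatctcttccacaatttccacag
The Epb42 window directly precedes the annotated gene. The Alas2 window and both Hemgn windows lie inside the annotated span of their gene. The Epb42 match, AGATAG, begins 82 bases before the start. The inner Hemgn window has 2 matches, TGATAA beginning 94 bases and AGATAA 53 bases before the start, and the outer window has 0. The Alas2 match, AGATAA, begins 136 bases before the start. Of all 33469 windows of the same length, 27.0% held at least 1 such match, so a match is common and is given as a description only.

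In blood the 5 transcripts were among the brightest on the array. Alas2 and Ahsp read between 15.98 and 16.00 and between 15.96 and 16.00 log2 intensity on the 24 blood arrays, within 0.5 log2 of the highest value of each array, which is called near the ceiling here. On 23 of the 24 blood arrays at least 1 other probe had exactly the same value as Alas2 (median 15.5 other probes). At such readings a rise cannot be seen and a fall only if it is large, so Alas2 and Ahsp were not compared between blood groups. Hemgn ranged from 13.35 to 14.20, Slc4a1 from 12.91 to 14.44 and Epb42 from 12.85 to 14.18, all at or above the 96.7th percentile of their array. These 3 genes were below the ceiling and were compared.

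Choroid plexus read far lower for every member. There Alas2 and Ahsp lay between the 70.6th and 96.3rd and between the 72.5th and 96.2nd percentile of the array. Hemgn, Slc4a1 and Epb42 lay between the 4.54th and 61.1st, the 12.6th and 58.4th, and the 6.37th and 49.5th percentile. At that depth the scale is coarse: a median of 109.5, 69.5 and 112 other probes had exactly the same value as Hemgn, Slc4a1 and Epb42 on the same pool. The table holds no background flags, so it is unknown how far these 3 genes stood above background in choroid plexus.

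**Figure D1:**
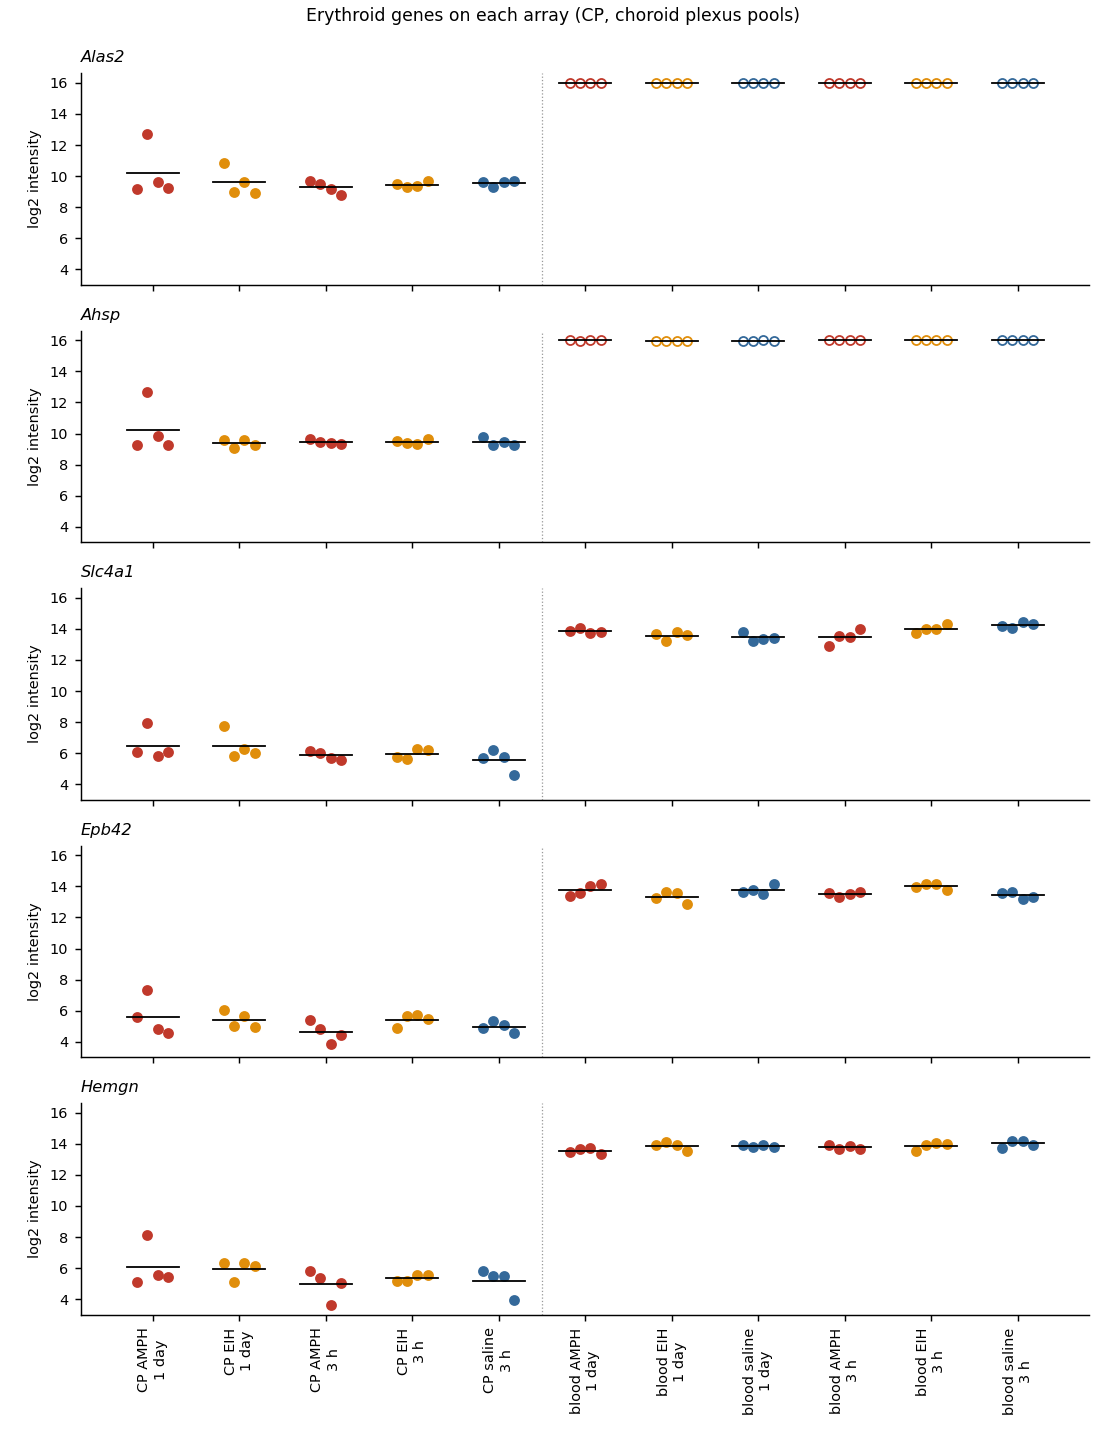
Log2 intensity of each member on every array (y axis) by group (x axis), choroid plexus (CP) left of the dotted line and blood right of it, red for AMPH, orange for EIH and blue for saline, with black bars for group means. Open symbols mark values near the ceiling; Alas2 and Ahsp are open on all 24 blood arrays, and replicate 2 of choroid plexus AMPH at 1 day stands highest of its group for all 5 members.

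Under saline at 3 h the tissue labels were borne out by tissue genes. Kcnj13, a potassium channel of the epithelium, averaged 15.17 in choroid plexus and 4.41 on the 2 blood arrays with a value. Cd3e, part of the T cell receptor complex, averaged 4.59 on the 3 choroid plexus pools with a value and 9.88 in blood. S100a8, a calcium-binding protein of neutrophils, averaged 5.69 in choroid plexus and 13.79 in blood. Ttr, the transthyretin that choroid plexus secretes, was near the ceiling in all pools and ran from 3.18 to 12.46 over the blood arrays with a value. Summed over 13 epithelial genes, blood of 3 h read 708 to 6222 with AMPH, 613 to 2765 with EIH and 208 to 660 with saline. Choroid plexus saline pools of 3 h read 320240 to 337639. Blank cells were left out of these sums, and the reason for the spread in blood was not tested. A tissue tag of the blood samples names striatum, while the protocol gives trunk blood. The medians of the arrays lay between 139 and 146 intensity units at 3 h and between 165 and 171 at 1 day.

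The blood comparisons asked whether hyperthermia or amphetamine changed the reticulocyte signal. Of 3 members compared, 1 fell in 1 of the 4 comparisons with saline: Slc4a1, the anion exchanger, 3 h after amphetamine. Slc4a1 read 12.91, 13.55, 13.45 and 14.01 in the AMPH rats of 3 h, against 14.20, 14.07, 14.44 and 14.31 in the saline rats of 3 h. Every AMPH value was below every saline value, with a narrow gap between 14.01 and 14.07. The share of all genes separated in this way was not computed. The log2 difference was -0.77 ± 0.21 (SE, n = 4 each), a level 0.585 times that of saline, with a limma adjusted p of 0.0272. Among all genes 8.37% were called in this comparison (3.43% as lower), so 1 of 3 members is a small count to set against that share.

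That call was not stable. The adjusted p was 0.107 when only the 2 groups compared were fitted. It was 0.0559 to 0.0906 in 5 of the 8 fits that left out 1 array, namely AMPH replicate 1 or 2 or saline replicate 1, 3 or 4. Without AMPH replicate 1, the lowest array, the difference was -0.58. The other probe of Slc4a1 read 9.09, 9.20, 9.34 and 9.47 in AMPH rats, against 9.52, 9.47, 9.84 and 9.66 in saline rats, a difference of -0.35 with an adjusted p of 0.371. In the same rats neutrophil and T cell markers moved strongly: 6 of 10 neutrophil markers tested rose and 1 fell, and 8 of 10 T cell markers fell. The summed intensity of the 11 neutrophil markers measured was 76016 to 115862 in AMPH rats and 24074 to 36955 in saline rats, and that of the 10 T cell markers 7595 to 17963 in AMPH rats and 28935 to 37260 in saline rats. Their part in the Slc4a1 result was not tested. In whole tissue and whole blood, fewer cells of a type and less RNA per cell cannot be told apart.

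Epb42, which ties band 3 to the skeleton, was highest in the EIH rats of 3 h. It read 13.99, 14.13, 14.16 and 13.75 in those rats, against 13.57, 13.66, 13.21 and 13.34 in saline rats of 3 h. The groups did not overlap, but the share of all genes without overlap was not computed. The difference was 0.56 ± 0.22 (SE, n = 4 each, 95% interval 0.11 to 1.01), with an adjusted p of 0.0987 in limma. It was therefore not called, in a comparison in which 12.5% of all genes were called, although a fit with an intensity trend and a robust spread gave an adjusted p of 0.0418. In these EIH rats 7 of 10 neutrophil markers rose and 1 fell, and 9 of 10 T cell markers fell. The summed neutrophil markers were 54508 to 96651 in EIH rats and 24074 to 36955 in saline rats, and their part in the Epb42 values was not tested. With AMPH at 3 h Epb42 read 13.58, 13.32, 13.54 and 13.66, which overlapped saline. With AMPH at 1 day it read 13.36, 13.59, 14.05 and 14.12, which overlapped the saline rats of that time.

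At 1 day Epb42 stood the other way in EIH rats. It read 13.27, 13.64, 13.60 and 12.85 in the EIH rats of 1 day, against 13.62, 13.79, 13.48 and 14.18 in the saline rats of 1 day. The groups overlapped, and the difference of -0.43 ± 0.22 was not called (adjusted p 0.513, 0.0512% of all genes called). The difference between the 2 EIH effects, 1 day minus 3 h, was -0.99 ± 0.31 with an adjusted p of 0.0481, and 8.62% of all genes were called in that comparison. The call was lost in 14 of 16 fits that left out 1 array (adjusted p 0.0506 to 0.109) and held only without saline 1 day replicate 3 or EIH 1 day replicate 2. A fit of the compared groups alone gave 0.0644. Within EIH rats, Epb42 was lower by 0.67 ± 0.22 log2 at 1 day than at 3 h (adjusted p 0.0319, 20.9% of all genes called), a comparison that also sets apart 2 sets of arrays that appear to have been normalized separately. That call was lost in 5 of 8 fits that left out 1 array, namely EIH 3 h replicate 1, 2 or 3 or EIH 1 day replicate 1 or 4 (adjusted p 0.0539 to 0.125), and it was 0.0837 in a fit of the compared groups alone.

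Slc4a1 also stood differently at 1 day. It read 13.85, 14.08, 13.71 and 13.78 in AMPH rats of 1 day, against 13.80, 13.24, 13.32 and 13.42 in saline rats of 1 day. The difference of 0.41 ± 0.21 was not called (adjusted p 0.327, 1.95% of all genes called). The other probe of Slc4a1 gave 9.58, 9.88, 9.48 and 9.82 in these AMPH rats, against 9.24, 8.51, 8.19 and 8.04 in saline rats, a rise of 1.20 with an adjusted p of 0.00781. The AMPH effect at 1 day minus that at 3 h was 1.18 ± 0.30 with the brighter probe (adjusted p 0.0932, 0.379% of all genes called) and 1.54 ± 0.30 with the other (adjusted p 0.0229). Both probes had this difference in the same direction, and the choice of probe set which comparison was called. Saline rats themselves differed between times: Slc4a1 was -0.81 ± 0.21 at 1 day relative to 3 h with the brighter probe (adjusted p 0.0853, 0.484% of all genes called) and -1.13 with the other (adjusted p 0.0277).

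The EIH rats of 1 day read 13.66, 13.20, 13.77 and 13.60 for Slc4a1, against 13.73, 13.97, 14.02 and 14.30 in the EIH rats of 3 h. The values overlapped by a narrow margin, and the difference of -0.45 ± 0.21 was not called (adjusted p 0.152). The other probe gave a fall of -0.84 with an adjusted p of 0.00787.

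Hemgn, the nuclear protein, did not pass the test in any blood comparison. It read 13.47, 13.64, 13.72 and 13.35 in AMPH rats of 1 day, against 13.93, 13.80, 13.92 and 13.80 in saline rats of 1 day. All 4 AMPH values were below all 4 saline values, but the difference of -0.32 ± 0.17 had an adjusted p of 0.336 (unadjusted 0.0726, 95% interval -0.66 to 0.03). In that comparison 1.95% of all genes were called, and the share of genes without overlap was not computed. At 3 h Hemgn read 13.90, 13.69, 13.89 and 13.64 in AMPH rats and 13.56, 13.92, 14.08 and 14.00 in EIH rats, against 13.74, 14.19, 14.20 and 13.95 in saline rats. These overlapped, with differences of -0.24 (95% interval -0.59 to 0.11) for AMPH and -0.13 (-0.48 to 0.21) for EIH. The EIH rats of 1 day read 13.90, 14.10, 13.90 and 13.56, a difference from saline of 0.00 with an interval of -0.35 to 0.35. Between AMPH and EIH no member was called at 1 day, where 0% of all genes were called, or at 3 h, where 0.0397% were. At 3 h the AMPH minus EIH difference was -0.48 for Epb42 (unadjusted p 0.0374) and -0.52 for Slc4a1 (unadjusted p 0.0224), with adjusted p of 0.487 and 0.433 in limma. Between 1 day and 3 h, 0 of 3 members were called in AMPH rats, where 1.88% of all genes were, and 0 had an unadjusted p under 0.05.

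**Figure D2:**
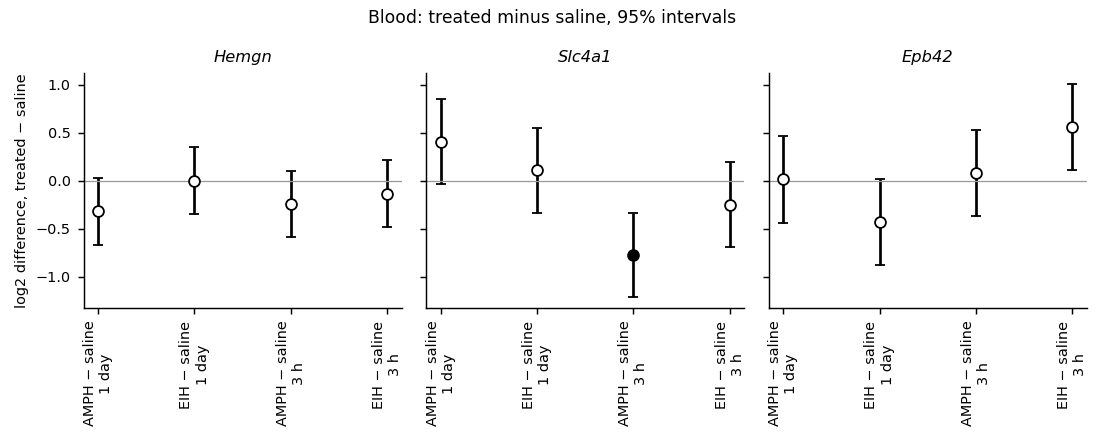
Log2 difference, treated minus saline, in blood (y axis) for the 3 members below the ceiling, in 4 comparisons (x axis), with 95% intervals and n = 4 arrays a group. The filled point, Slc4a1 in AMPH at 3 h (-0.77), passed the test; the open points did not, and Epb42 in EIH at 3 h (0.56) has an interval above 0 before adjustment.

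Other red cell genes were taken from 5 lists of 82 genes, of which 53 were measured. In EIH blood of 3 h, 4 of 53 rose and 0 fell. Slc2a1, a glucose transporter that many tissues use, rose by 1.55, and Tfrc, the transferrin receptor that brings in iron, by 1.02. Foxo3, a transcription factor, rose by 1.01, and Trim58, a ubiquitin ligase of late erythroblasts, by 0.87. In AMPH blood of 3 h, Slc2a1 rose by 1.69 and Ube2o, a ubiquitin enzyme that clears ribosomes from reticulocytes, fell by 1.20. Slc2a1 read higher in choroid plexus than in blood, as given below, and whether its rise came from red cells was not tested. Leaving out 1 array gave counts of 1 to 4 for EIH and 1 to 2 for AMPH, with 5 of 8 fits moved by over 1.5 times in each. At 1 day 0 of 53 passed against saline in either treatment. Both are smaller shares of the lists than the 12.5% and 8.37% called over all genes. White cell markers moved in the same rats, as given above, and their part in these values was not tested.

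In EIH rats the 1 day and 3 h groups differed more widely: 11 of the 53 were lower and 1 was higher at 1 day, where 7.27% of all genes were lower and 13.6% were higher. The lower ones included Gata1, the erythroid factor, by -0.77, Klf1, its partner at globin genes, by -0.64, Riok3, a kinase of maturing erythroblasts, by -0.83, and Dmtn, a protein that bundles actin in the red cell skeleton, by -1.33. Gclm, a subunit of the enzyme that starts glutathione synthesis, was higher by 2.14. All 5 lists had a median below 0, between -0.60 for red cell membrane and skeleton genes and -0.27 for erythroid factors and receptors, against a median of 0.11 over all genes. In the same comparison 8 of 10 neutrophil markers were lower and 7 of 10 T cell markers were higher at 1 day, and the part of white cells in the red cell values was not tested. The set of arrays changes with time here as well. In the difference between the EIH effects, 2 of 53 were called, both lower, where 8.62% of all genes were called, and leaving out 1 array gave 0 to 3: Trim58 at -1.17 and Tmod1, which caps actin filaments in the red cell skeleton, at -0.96.

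The comparison of choroid plexus with blood measured how much of the erythroid signal the pools held. All 5 members were lower in choroid plexus than in blood in all 5 conditions that both tissues have. The share of all genes called lower was 23.5% for AMPH and 22.9% for EIH at 1 day, and 25.1% for AMPH, 25.7% for EIH and 23.3% for saline at 3 h. Under saline at 3 h Alas2 read 9.64, 9.33, 9.59 and 9.67 in choroid plexus, against 15.999 on average on the 4 blood arrays. Since blood was near the ceiling, Alas2 was at least 87.0-fold lower in choroid plexus, and Ahsp, with 9.76, 9.27, 9.47 and 9.26 there, at least 94.3-fold lower.

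The 3 genes below the ceiling in blood lay at the low end of the array in choroid plexus, where many probes share a value. How much of those low readings is background is unknown, so the differences are given as read and not as sizes of the change. Hemgn read 5.81, 5.52, 5.48 and 3.97 in choroid plexus under saline at 3 h, a log2 difference from blood of -8.83 ± 0.43 (SE, n = 4 each, limma adjusted p 2.51e-19). Slc4a1 read 5.68, 6.21, 5.77 and 4.57, a difference of -8.70 ± 0.36 with an adjusted p of 1.88e-21. Its other probe gave -4.76 ± 0.25. Epb42 read 4.86, 5.35, 5.11 and 4.57, a difference of -8.47 ± 0.37. Replicate 4 was the lowest of these saline pools for all 3 genes. No pool overlapped any blood array for any member. Under saline at 3 h 5297 of 9925 genes were called in either direction, and the share of genes without overlap was not computed.

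The treatment effects at 3 h were also set against each other, choroid plexus minus blood, for the 3 genes below the ceiling. None was called by limma for EIH (6% of all genes called) or AMPH (3.11%). Slc4a1 had the 1 unadjusted p under 0.05, for AMPH (0.0399, difference 1.07, adjusted p 0.249). Its other probe gave a difference of 0.47 there, with an adjusted p of 0.517 in limma.

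Among the 5 lists, 38 of 52 genes tested were lower in choroid plexus than in blood under saline at 3 h and 3 were higher. Of all 9925 genes tested there, 5297 were called in either direction and 2308 (23.3%) as lower. The log2 difference was -6.27 for Fech, the last enzyme of heme synthesis, and -8.06 for Add2, an adducin of the red cell skeleton. The log2 difference was -7.60 for Klf1 and -6.36 for Riok3. Hbb, the adult beta globin, read 10.88 ± 0.29 in choroid plexus and 15.93 ± 0.05 in blood (SD, n = 4 each), near the ceiling on the 4 blood arrays. The 3 higher ones were Slc2a1 (2.49), the divalent metal transporter Slc11a2 (1.31) and hexokinase Hk1 (1.04), genes that many tissues use.

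On the linear scale, a pool's intensity was also set as a percent of the mean of the blood arrays of the same treatment and time. Alas2 stood at 0.669% to 10.3% over the 20 pools (median 1.10%) and Ahsp at 0.838% to 10.0% (median 1.06%). Both are upper limits, because their blood level is cut off at the ceiling. Hemgn stood at 0.0870% to 2.39% (median 0.301%), Slc4a1 at 0.121% to 1.74% (median 0.443%) and Epb42 at 0.124% to 1.13% (median 0.297%). Leaving out AMPH 1 day replicate 2 and EIH 1 day replicate 1, chosen after their values were seen, the highest percent was 1.27% for Alas2, 1.43% for Ahsp, 0.533% for Hemgn, 0.637% for Slc4a1 and 0.486% for Epb42. Whether the low values of Hemgn, Slc4a1 and Epb42 are signal or background was not tested.

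**Figure D3:**
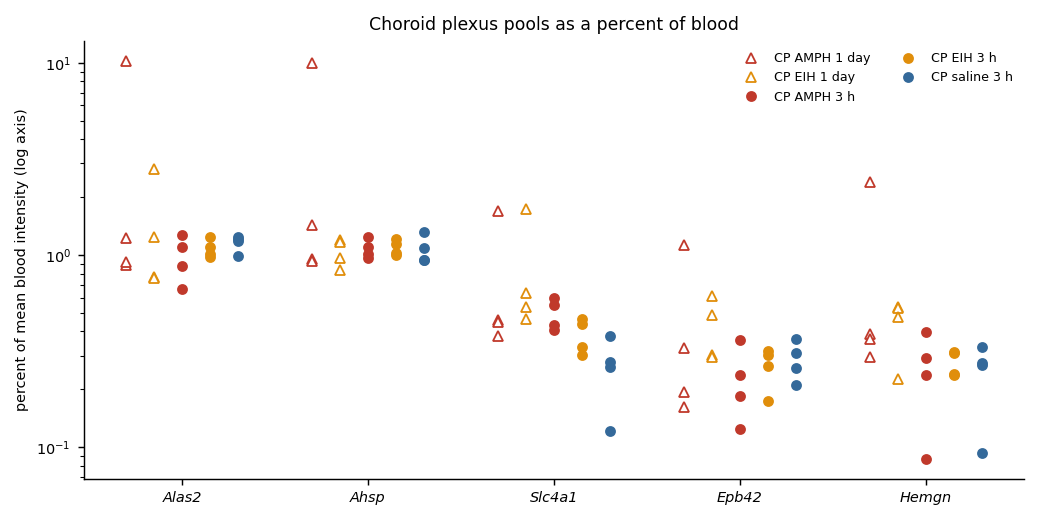
Each choroid plexus pool's linear intensity as a percent of the mean of the 4 blood arrays of its treatment and time (y axis, log scale) for each member (x axis), triangles for 1 day and circles for 3 h. Most pools lie near 1% for Alas2 and Ahsp and below 0.64% for the other members, and the AMPH pool at 10.3% and 10.0% stands apart.

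Within choroid plexus, no member passed the test in any of 8 comparisons (0 of 5 called by limma in each, and 0 of 40 values with an unadjusted p under 0.05). All genes were called at 0% in AMPH minus EIH at 1 day, 0.00973% in AMPH minus EIH at 3 h, 0.341% in EIH and 0.156% in AMPH minus saline at 3 h. These last shares are 35 and 16 genes, and leaving out 1 array gave 0 to 88 and 0 to 288. Against saline at 3 h the shares were 0.0294% for AMPH and 0% for EIH of 1 day, and between 1 day and 3 h they were 0.00981% for AMPH and 0% for EIH. The comparisons that set 1 day against 3 h mix time and the set of arrays, so they are not tests of treatment alone. At 3 h Alas2 read 9.70, 9.50, 9.17 and 8.78 with AMPH and 9.49, 9.32, 9.37 and 9.67 with EIH, beside the saline values given above, and the 3 groups overlapped. The differences from saline were -0.27 (95% interval -1.52 to 0.97) for AMPH and -0.10 (-1.34 to 1.15) for EIH. Ahsp at 3 h read 9.67, 9.49, 9.37 and 9.30 with AMPH and 9.55, 9.39, 9.36 and 9.62 with EIH, with differences from saline of 0.02 and 0.04.

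The membrane genes and Hemgn overlapped between groups at 3 h as well. Slc4a1 read 6.14, 6.02, 5.68 and 5.59 with AMPH and 5.78, 5.64, 6.26 and 6.18 with EIH. Epb42 read 5.41, 4.82, 3.88 and 4.46 with AMPH and 4.86, 5.64, 5.72 and 5.45 with EIH. Hemgn read 5.81, 5.37, 3.62 and 5.06 with AMPH and 5.19, 5.20, 5.59 and 5.56 with EIH. The lowest Hemgn and Epb42 values of all pools were both in replicate 3 of AMPH at 3 h.

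At 1 day the spread between pools was wider, and 1 pool held most of it. Alas2 read 9.17, 12.70, 9.63 and 9.22 in AMPH pools of 1 day and 10.83, 8.96, 9.64 and 8.94 in EIH pools of 1 day. Ahsp read 9.28, 12.67, 9.86 and 9.24 in AMPH pools and 9.59, 9.08, 9.56 and 9.29 in EIH pools. Slc4a1 read 6.10, 7.97, 5.81 and 6.06 in AMPH pools and 7.73, 5.83, 6.28 and 6.04 in EIH pools. Replicate 2 of AMPH and replicate 1 of EIH were the highest of their groups for each of these genes.

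Epb42 and Hemgn gave the same 2 pools. Epb42 read 5.57, 7.35, 4.81 and 4.54 in AMPH pools of 1 day and 6.01, 5.00, 5.69 and 4.96 in EIH pools. Hemgn read 5.14, 8.16, 5.54 and 5.45 in AMPH pools and 6.34, 5.09, 6.32 and 6.16 in EIH pools. Replicate 1 of EIH led only narrowly for Hemgn, 6.34 beside 6.32, and for Ahsp, 9.59 beside 9.56. The mean difference of AMPH 1 day from saline 3 h was 0.63 ± 0.59 for Alas2 and 0.82 ± 0.50 for Ahsp with all pools, and -0.22 and 0.02 in a fit without the 2 high pools. The SE in that fit was 0.22 for Alas2 and 0.17 for Ahsp. The 2 pools were left out because the members were highest in them, so smaller differences and SEs were built into that choice.

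The AMPH pool was high for other blood cell genes, least for T cell genes, and low for epithelial genes. Its difference from the mean of the other 3 AMPH pools of 1 day was 3.36 log2 for Alas2, 3.21 for Ahsp, 2.79 for Hemgn, 2.38 for Epb42 and 1.98 for Slc4a1. The median was 2.79. The pool was singled out because the members were highest in it, so these values are a description. Hbb was higher by 2.57, Pf4, platelet factor 4, by 4.51, and S100a8 by 3.50. Other genes of the same lists were lower: Hbg1 at -0.11, the platelet genes Itgb3 at -0.50 and Gp5 at -0.38, and the neutrophil gene Cxcr2 at -0.16. The medians were 2.0 for 6 platelet genes (4 above all other 3 pools), 1.57 for 10 neutrophil genes (8 above), 1.30 for 6 B cell genes (4 above), 0.92 for 10 NK and cytotoxic genes (8 above) and 0.48 for 10 T cell genes (4 above). Over all 9963 genes 35.2% were above all other 3 pools and 4369 genes were below. The T cell count is near that share. The median of 13 choroid plexus epithelium genes was -2.75, and 13 of 13 were below all other 3 pools, Ttr by -0.0085 only, near the ceiling. Kl, the klotho protein of this epithelium, read 8.56, and Kcnj13 read 12.30, against at least 11.44 and 14.75 in the other 3 pools. The summed intensity of the epithelial list in AMPH pools of 1 day ran from 133287 to 335322, and 310105 or more in each other choroid plexus group. The part of these other cells in the erythroid values was not tested.

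Genes of the other red cell lists went both ways in that pool, where 35.2% of 9963 genes were above all other 3 pools (median over all genes -0.09). Heme synthesis and iron genes had a median of -0.79 in that pool (2 of 11 above all other 3 pools, 7 below), red cell membrane and skeleton genes -0.03 (4 of 9 above), globins and red cell enzymes 0.03 (4 of 12 above), erythroid factors and receptors -0.26 (2 of 7 above) and reticulocyte maturation genes 0.33 (7 of 13 above). Among these genes, named here after their values were seen, the pyruvate kinase Pklr was higher by 3.58, the erythroid factor Nfe2 by 2.93, Add2 by 2.81 and Klf1 by 1.43. Others were lower in the same pool: Dmtn at -2.41, the heme synthesis genes Uros at -1.96 and Ppox at -1.53, and Gata1 at -1.05. The rats of this pool include 1 number that recurs in replicate 4 of saline at 3 h, a pool that was lowest of its group for Hemgn, Slc4a1, Epb42 and Ahsp and highest for Alas2 (9.67). The same rat cannot belong to both groups, so the numbers or the label of either pool may be wrong.

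The EIH pool of 1 day, replicate 1, had smaller differences for the members. Slc4a1 was 1.68 above the mean of the other 3 pools, Alas2 1.65, Epb42 0.80, Hemgn 0.48 and Ahsp 0.28. The median was 0.80, again in a pool singled out for these genes. The leads of Hemgn and Ahsp over the next pool were narrow, as given above. The platelet median was 0.32 (Pf4 1.55, Itgb3 1.68, Gp5 -0.88), and the median of globins and red cell enzymes was -0.11 (4 of 12 above all other 3 pools, 6 below), with Hbb at 1.39 and Hbg1 at -2.43. The neutrophil median was 0.03 and the epithelial median -0.24. The median of erythroid factors and receptors was 0.58 (4 of 8 above, 0 below). It was 0.40 for T cell genes (5 of 9 above) and 0.36 for NK and cytotoxic genes (4 of 9 above). It was -0.37 for B cell, -0.24 for heme synthesis and iron, -0.06 for membrane and skeleton and -0.003 for reticulocyte maturation genes. Over all 10047 genes the median was -0.13, with 24.8% above all other 3 pools and 4549 genes below. The other probe of Slc4a1 read 4.22 in this pool, the lowest of its group, so the high Slc4a1 value was seen with 1 of its 2 probes. In the AMPH pool both probes were the highest of the group, at 7.97 and 5.48.

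**Figure D4:**
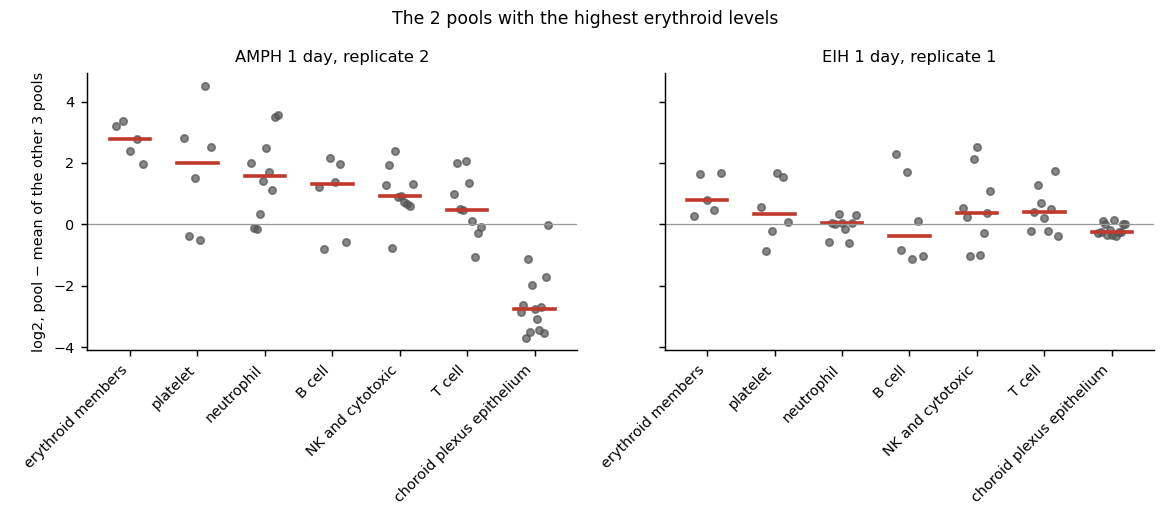
Log2 level of a pool minus the mean of the other 3 pools of its group (y axis) for genes of 7 lists (x axis), with 1 point per gene and red bars for list medians, in AMPH 1 day replicate 2 (left) and EIH 1 day replicate 1 (right). In the AMPH pool the erythroid median is 2.79 and the epithelial median -2.75; in the EIH pool they are 0.80 and -0.24.

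Across arrays, all 10 pairs of members correlated in choroid plexus by Pearson's r, and none of 3 pairs did in blood. The difference between the tissues was not tested. The share of all gene pairs that correlate was not computed, so the count cannot be called particular to the members. Correlations used log2 levels with the mean of each time removed, 10 pairs over 20 pools and 3 pairs over 24 blood arrays, with 100000 permutations within each time and Benjamini-Hochberg adjustment over the 13 pairs. In choroid plexus Pearson's r was 0.626 to 0.906 and Spearman's rho 0.343 to 0.761, with the highest r for Alas2 and Ahsp (0.906, permutation adjusted p 0.00557). For all 10 pairs the adjusted p of r was at most 0.0346, while 8 of 10 passed by rho. The relation leaned on the high pools: without AMPH 1 day replicate 2 the r values were 0.204 to 0.670, and without the 2 arrays farthest from the median of the first gene 0.381 to 0.866. Within the 12 pools of 3 h they were -0.0057 (Alas2 and Slc4a1) to 0.752 (Hemgn and Epb42). In AMPH 1 day replicate 2, 3508 of 9963 genes were above and 4369 below all other 3 pools of its group. Pools that share a rat number and, for Hemgn, Slc4a1 and Epb42, the coarse low scale are common to these points.

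In blood the pair of membrane genes had an r of -0.0634 (rho -0.105, permutation adjusted p 0.852), although their proteins bind each other. Hemgn had an r of 0.0023 with Slc4a1 and -0.0602 with Epb42. Within times, Hemgn and Slc4a1 gave -0.538 over the 12 arrays of 1 day and 0.352 over the 12 arrays of 3 h. None of the 3 pairs passed by r or by rho.

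**Figure D5:**
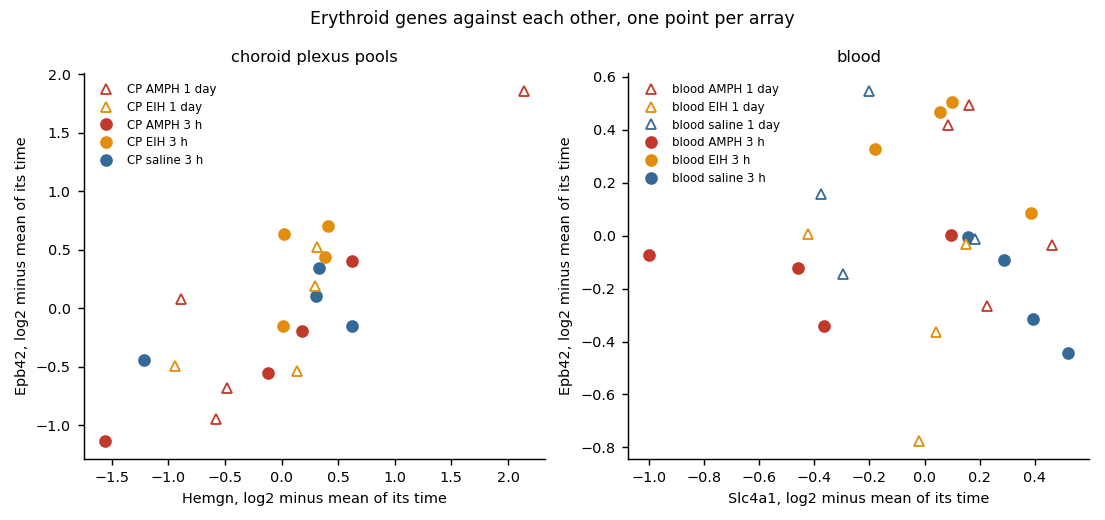
Log2 levels minus the mean of their time, 1 point per array: Epb42 against Hemgn in 20 choroid plexus pools (left) and Epb42 against Slc4a1 in 24 blood arrays (right), triangles for 1 day and circles for 3 h. On the left r is 0.813 with 1 AMPH pool at the upper right (0.670 without it), and on the right r is -0.0634.

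The genes most like each member, by Pearson's r of time-centred log2 levels, are given as a description. Over 20 choroid plexus pools and 8728 genes with a value in each, Hbb (0.974), the neuropeptide gene Npy (0.966) and Pf4 (0.954) were closest to Alas2. Without AMPH 1 day replicate 2, Hbb (0.922) and Npy (0.871) kept the first places. Ahsp was closest to Pf4 (0.940), Clic1 (0.938) and Enpp1 (0.937), and without that pool to Phtf2 (0.792), Ttll10 (0.769) and Art4 (0.760). Epb42 was closest to Cyba (0.906), a subunit of the phagocyte oxidase, Cd68 (0.903), a lysosomal protein of macrophages, and Myo1g (0.902). Hemgn was closest to Cytip (0.919), Pygl (0.914) and Rgs14 (0.903), and Slc4a1 to Adamts7 (0.898), Pde4a (0.888) and Egfr (0.888).

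In blood, over 24 arrays and 6708 genes, the closest genes were none of the red cell lists. Epb42 was closest to Prpf18 (0.823), Rab43 (0.813) and Atg12 (0.763), and Slc4a1 to Ik (0.746), Ddit4 (0.746) and Prkag1 (0.737). Hemgn was closest to Adnp (0.767), Cd36 (0.681) and Pop7 (0.676).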

How the data were processed

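Intensity on a linear scale, as deposited by the authors, was read for 14055 probes on 44 arrays, with 0 further columns. The labels' protocols name Tri Reagent for RNA extraction and Agilent's Quick Amp kit with Cy3 for labelling. How the scans were background-corrected and normalized, and why some cells are blank, is not given in the sources used here. Medians and 75th percentiles were close within the 24 arrays of 3 h (577 to 582 for the 75th percentile) and within the 20 arrays of 1 day (618 to 634), so normalization was apparently done in 2 sets, and differences between times also compare sets. For arrays, their number limits the precision. Nothing says how the pools of a group were separated beyond their rat numbers, and p-values measure the spread between these samples.

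Symbols came from the platform annotation: 12926 probes had 1 symbol, 0 several and 1129 none, updated through accession or synonym to RefSeq GRCr8. The probe with the highest mean stood for a gene. Log2 values were fitted per tissue (or over both tissues, for choroid plexus minus blood) with limma 3.58.1 in R 4.3.3, a mean per group and empirical Bayes moderation. Blank cells stayed missing, and a gene was tested with at least 2 values in each group, except where an alternative left 1 pool. Calls are Benjamini-Hochberg adjusted p under 0.05 over all genes tested. How many of all genes have groups without overlap was not computed for any comparison. A value within 0.5 log2 of the highest on its array was marked as near the ceiling, and a member so marked on every array of both groups was not compared. Correlations and figures used Python 3.11.15 with numpy 2.4.6, scipy 1.17.1 and matplotlib 3.10.9.

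The members and lists were chosen with earlier results of these data known. The genes named are the 5 members in every comparison, called genes of the other red cell lists (up to 4 per list and comparison, largest first), the 3 genes most like each member in each tissue among named genes with a value on every array, and fixed tissue genes (Ttr, Kcnj13, Kl, Cd3e, Cd79b, S100a8). The text prints a part of these. Replicate numbers follow accession order and pair nothing. On simulated arrays with the real spread and 200 changed genes, 38% of 2-fold and 86% of 4-fold changes were called in blood EIH at 3 h (6711 genes), and 58% and 86% in choroid plexus EIH at 3 h (8730 genes). The 200 genes were drawn at random. The members had SEs of 0.47 to 0.60 in that choroid plexus comparison, so the 58% need not hold for them. The closing section gives the alternatives tried.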

Additional observations from a re-analysis of the deposited data

Results flagged for a closer look

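In choroid plexus AMPH at 1 day, replicate 2 lay far from the other 3 pools for Alas2 (12.70 log2, against 9.17 to 9.63), for Hemgn (8.16, against 5.14 to 5.54) and for Slc4a1 (7.97, against 5.81 to 6.10). Hemgn in choroid plexus EIH at 1 day, replicate 2, lay far below the other 3 pools, at 5.09 against 6.16 to 6.34. These were found with Dixon's test on 43 sets of 4 arrays, of which chance alone flags about 1 in 20, and all 3 high values are of the same pool. In blood, the EIH effect on Epb42 differed between 1 day and 3 h by -0.99 log2 in limma's test of the difference itself (adjusted p 0.0481).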

How the results depend on the processing

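Of 546 recomputed counts of members called, group levels and pair correlations, 486 kept their value or their side of the threshold, among them all 104 of choroid plexus minus blood within a treatment. The others were these. In blood, the saline 1 day minus 3 h count was 1 in place of 0 with the same median on every array, an intensity trend with robust spread, array weights or the mean over a gene's probes. The EIH 1 day minus 3 h count was 2 with the same median or the probe mean and 0 with only the compared groups. The EIH minus saline count at 3 h was 1 with trend and robust spread. The AMPH effect, 1 day minus 3 h, had 1 with trend and robust spread, array weights or the probe mean. The AMPH minus saline count was 0 at 3 h with only the compared groups or the probe mean, and 1 at 1 day with the probe mean. The EIH effect, 1 day minus 3 h, had 0 with only the compared groups, the probe mean or blank cells at the array's lowest value. Leaving out 1 array gave 0 to 1 in these: AMPH minus saline at 3 h, saline and EIH 1 day minus 3 h, and both effects. Without pools with a recurring rat number, only EIH 1 day replicate 1, the high pool, is left of its group. It is assumed to vary like the other groups, which supply the spread, so these calls bear on that pool and not on EIH: AMPH minus EIH at 1 day, EIH 1 day minus saline and EIH 1 day minus 3 h had 1 each in choroid plexus, and Slc4a1 turned to -1.73 in AMPH minus EIH at 1 day (0.02 with all pools). The other probe of Slc4a1 gave levels of 4.91 in AMPH and 4.52 in EIH pools of 1 day and 4.98 and 4.99 in those of 3 h. In blood it gave 9.69 in AMPH, 9.08 in EIH and 8.49 in saline at 1 day, and 9.27, 9.91 and 9.62 in the same order at 3 h. With group means removed, r was -0.0755 for Hemgn and Slc4a1 and 0.171 for Hemgn and Epb42 in blood, and 0.762 for Epb42 and Ahsp in choroid plexus, no longer called. With the rat number as a random replicate block (22 blocks, correlation 0.116), no call of a member changed in choroid plexus minus blood. Replicate numbers pair nothing. The cause was not tested for any of these. Alas2 and Ahsp near the ceiling in blood, and tied low values in choroid plexus, limit what can be seen.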
